A study of Rattus norvegicus with 2 samples.

Results

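Hif1a, Egln3, Vegfa, Adm, Bnip3, P4ha1 and Ndrg1, 7 genes of the hypoxia response, were followed cell by cell in IEC-6, a line established from rat intestinal epithelium. They were chosen by symbol, and all 7 were found among the 18256 genes that at least 1 of the count matrices lists. The TNF-labelled library came from cells given 100 ng/mL of recombinant rat tumor necrosis factor (TNF), an inflammatory cytokine, for 72 hours in each of 10 cycles. The control library came from cells given phosphate-buffered saline, likewise for 10 treatments. Cells of both groups grew in high-glucose medium with serum and insulin, and were frozen and thawed before library preparation. Oxygen during culture was not given in the sources used here. With 1 library per group, differences have no replicate check and could not be tested. The sample titles also carry different prefixes, so preparation and treatment cannot be told apart.

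Cells sense oxygen through hypoxia-inducible factors (HIFs), transcription factors made of an oxygen-regulated alpha subunit and a stable partner called ARNT. When oxygen is present, prolyl hydroxylases of the EGLN family mark the alpha subunit, the VHL ubiquitin ligase recognises the mark, and the protein is destroyed. When oxygen falls, the alpha subunit persists, and the factor binds a short DNA core, A or G followed by CGTG, near genes for blood vessel growth, glycolysis, removal of mitochondria and collagen modification. Since this control acts on the HIF-1 alpha protein, the level of Hif1a transcripts is not a measure of HIF activity. In the intestine the lumen is low in oxygen, and HIF is known for supporting the epithelial barrier.

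RefSeq promoter windows (GRCr8, 250 bases before to 50 after a gene's start, matched by symbol) were found for 6 of the 7 genes, all but Ndrg1. The letters ACGTG and GCGTG were searched on both strands. Bnip3 held 2 matches of ACGTG and 2 of GCGTG, P4ha1 held 1 and 2, and Hif1a held 3 and 0, while the windows of Vegfa, Adm and Egln3 held 0 of either. Of 33469 promoter windows of this length, 19.3% held ACGTG, 29.7% held GCGTG and 41.6% held at least 1 of them. In Bnip3 and in Hif1a a pair of ACGTG matches was the same place read on both strands, CACGTG, which is also the E-box bound by other factors and stood in 6.42% of the windows. The windows of Bnip3 and Vegfa, lower in the TNF-labelled library, and of P4ha1, higher there, are shown 5′ to 3′ to set genes that differed in opposite directions beside the letters in their promoters, with matches in capitals. They lie at chr1:203154913-203155212 (minus strand), chr9:22452604-22452903 (plus strand) and chr20:27844796-27845095 (plus strand), and a further Vegfa window in the table held no match either. A match describes the letters and is not evidence of a bound site. Letters outside these windows were not searched, so a window without a match does not show that the gene lacks a HIF site.
Bnip3: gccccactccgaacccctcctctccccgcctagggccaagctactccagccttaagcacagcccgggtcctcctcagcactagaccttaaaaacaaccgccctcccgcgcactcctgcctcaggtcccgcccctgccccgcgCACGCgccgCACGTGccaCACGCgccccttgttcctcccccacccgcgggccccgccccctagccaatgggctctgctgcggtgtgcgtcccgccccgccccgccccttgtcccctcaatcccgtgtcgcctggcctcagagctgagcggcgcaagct
Vegfa: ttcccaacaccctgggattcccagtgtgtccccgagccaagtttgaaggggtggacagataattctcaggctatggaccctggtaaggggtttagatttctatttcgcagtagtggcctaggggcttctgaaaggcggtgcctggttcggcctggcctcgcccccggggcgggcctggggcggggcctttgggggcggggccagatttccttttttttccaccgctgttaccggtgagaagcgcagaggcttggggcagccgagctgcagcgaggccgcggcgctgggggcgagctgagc
P4ha1: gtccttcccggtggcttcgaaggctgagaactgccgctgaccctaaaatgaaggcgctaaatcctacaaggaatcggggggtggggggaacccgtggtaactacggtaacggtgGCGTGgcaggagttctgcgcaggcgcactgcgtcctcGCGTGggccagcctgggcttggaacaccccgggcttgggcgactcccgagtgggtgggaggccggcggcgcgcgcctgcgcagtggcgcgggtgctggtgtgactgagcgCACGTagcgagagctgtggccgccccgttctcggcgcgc

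Depth came to 14604393 counts over 3457 TNF-labelled cells and 24207943 counts over 5712 control cells, at a median of 3566 and 2902.5 counts per cell. Levels are counts per 1000000 counts (CPM) of the summed cells, 1 count being worth 0.0685 and 0.0413 CPM, and ratios divide the TNF-labelled by the control level. Intervals in parentheses are at 95% and cover counting error alone, exact Poisson for a level, exact conditional binomial for a ratio and exact binomial (Clopper-Pearson) for a share of cells. Of the epithelial markers, Krt8 stood at 2193 and 2456 CPM in the TNF-labelled and control libraries and Cdh1 at 313 and 424 CPM, but Epcam had 4 counts in each and Vil1 had 5 and 13. The 7 of 10 epithelial markers found summed to 2573 and 3123 CPM, with Krt18 (27.0 and 93.4 CPM) and Spint2 (36.7 and 140.2 CPM) past 2-fold lower. The 7 of 8 mesenchymal markers found summed to 519 and 647 CPM, with Col1a1 at 393 and 355 CPM, Dcn at 103 and 234 CPM and Col3a1 at 4.18 and 40.5 CPM. Markers of white blood cells summed to 1.37 and 5.99 CPM over the 5 of 6 found, with Cd74 and Itgam at 0 counts among TNF-labelled cells. Endothelial markers summed to 128 and 72.8 CPM over 6 genes, of which Tek made up 127.5 and 70.5 CPM. Pecam1 had 2 and 15 counts and Cdh5 had 0 and 4. Of the genes of dividing cells, Top2a was at 355 and 136 CPM, Mki67 at 350.2 and 296 CPM, and Cdk1 at 53.5 and 134 CPM. The part of these marker differences in the results that follow was not tested, beyond the cells without a Mki67 or Top2a count described with the clusters. The chemokine genes Ccl2 and Cxcl1, which TNF is known to induce, were at 60.9 and 147 CPM in the TNF-labelled library against 970 and 1502 CPM in the control library, so each direction below is stated for the library labelled TNF. Not every chemokine gene went this way, with Ccl7 at 107 against 86.2 CPM. The libraries shared 24 cell barcodes, and no ratio of the 7 genes left its counting interval without them.

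Of the 7 genes, 6 had a ratio below 1, and P4ha1 alone had one above 1. Vegfa and Bnip3 were past 2-fold lower and none was past 2-fold higher, where a gene counted as past 2-fold had at least 10 CPM in the higher library. That level was reached by 6 genes and not by Adm. Over all 8550 genes at that level, 53.8% had a ratio of 1 or below by library totals, beside 5 of the 6 genes here below 1. From so few genes, this count of directions cannot be set apart from that share. The share with TMM factors was not worked out. Of the 8550 genes, 8.19% were past 2-fold lower, 5.27% past 2-fold higher and 13.5% either. The 2 of 6 genes past it here make 33.3%, from too few genes to be set apart from that background. The median log2 ratio was -0.59 over the 7 genes and -0.45 over the 6 at 10 CPM, beside -0.07 for all genes at 10 CPM. Scaling with TMM factors, which balance the bulk of genes between the libraries, raised every log2 ratio by 0.16, gave medians of -0.43, -0.28 and 0.09, and left Vegfa and Bnip3 past 2-fold, beside a background of 5.36% lower and 8.58% higher. Among all genes past 2-fold, 39.2% were higher, and 61.6% with TMM factors.

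**Figure D1:**
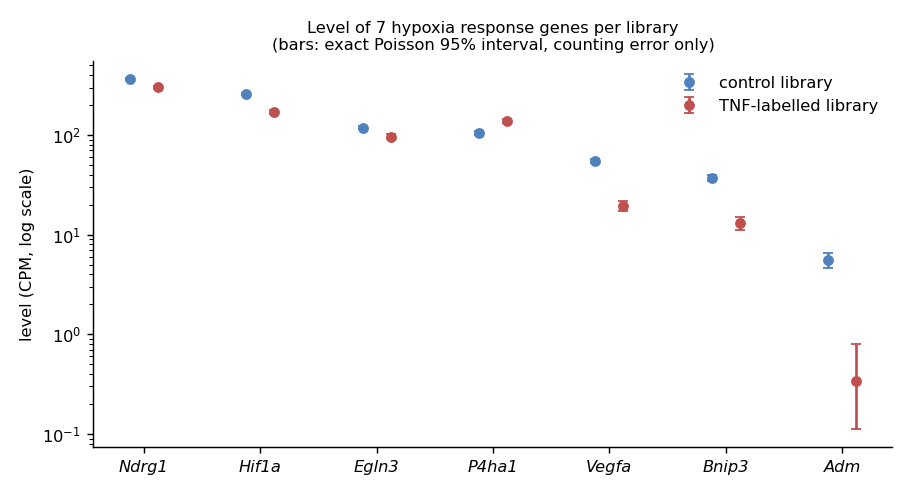
Level of each gene in CPM of summed cells (log axis) in the control library (blue) and the TNF-labelled library (red), with exact Poisson 95% intervals. P4ha1 is the one gene with the red point above the blue, at 140 against 105 CPM, and the gap is widest for Adm, which rests on 5 counts in the TNF-labelled library. Levels of different genes are not compared, since gene length was not taken into account.

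Hif1a, which encodes the oxygen-regulated alpha subunit, stood at 170 CPM (163 to 177) from 2480 counts among TNF-labelled cells and at 256 CPM (250 to 263) from 6207 counts among control cells. The intervals did not overlap, and the ratio of 0.662 (0.632 to 0.694) was under 2-fold, 0.742 with TMM factors. Egln3, the prolyl hydroxylase whose gene is itself induced by HIF, stood at 96.4 CPM (91.4 to 102) and 119 CPM (114 to 123). Its ratio was 0.812 (0.761 to 0.866), and 0.910 with TMM factors, so part of its distance from 1 went with the scaling.

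Vegfa encodes the growth factor that drives blood vessel sprouting. It stood at 19.5 CPM (17.3 to 21.9) from 285 TNF-labelled counts and at 54.9 CPM (52.0 to 57.9) from 1329 control counts. That made it 2.81-fold lower in the TNF-labelled library (2.47 to 3.21), with the whole counting interval past 2-fold. Adm, which encodes the vessel-relaxing peptide adrenomedullin, was scarce in both libraries, with 5 counts (0.342 CPM, 0.111 to 0.799) in the TNF-labelled and 134 counts (5.54 CPM, 4.64 to 6.56) in the control library. Its ratio of 0.0618 (0.0198 to 0.148) was the smallest of the 7, but Adm stayed below the 10 CPM asked of a gene past 2-fold. In cells without a Mki67 or Top2a count it had 2 TNF-labelled against 43 control counts, and in thinned cells 2 against 39. The ratios there, 0.117 and 0.134, were set by the floor of 3 counts used in ratios. With so few TNF-labelled counts, the size of the Adm ratio is poorly fixed.

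Bnip3, which encodes a receptor on the outer mitochondrial membrane that directs mitochondria to autophagy, stood at 13.0 CPM (11.2 to 14.997) from 190 counts in TNF-labelled cells and at 37.1 CPM (34.7 to 39.6) from 899 counts in control cells. It was 2.85-fold lower in the TNF-labelled library (2.44 to 3.36), again with the whole interval past 2-fold. Its close relative Bnip3l, known for the same role, was at 131 and 136 CPM, a ratio of 0.963 (0.909 to 1.02) whose interval takes in 1. The ratio interval of Bnip3, 0.298 to 0.410, did not overlap that of Bnip3l.

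P4ha1, the catalytic subunit of the collagen prolyl 4-hydroxylase that stabilises the collagen triple helix, was at 140 CPM (134 to 146) in the TNF-labelled and 105 CPM (101 to 109) in the control library. The ratio was 1.33 (1.26 to 1.42), or 1.495 with TMM factors, under 2-fold in both. Its paralog P4ha2 was at 172 and 154 CPM (ratio 1.12, 1.06 to 1.18). The shared beta subunit gene P4hb was at 529 against 884 CPM (ratio 0.598, 0.582 to 0.614), opposite in direction to P4ha1. Ndrg1, a stress-responsive gene that hypoxia and differentiation are known to raise in epithelia, stood at 302 CPM (293 to 311) and 363 CPM (355 to 370). Its ratio of 0.833 (0.803 to 0.863) rose to 0.933 with TMM factors.

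With every cell thinned to 1700 counts, which kept 2728 TNF-labelled and 4753 control cells and left out 729 and 959 shallower ones, the shares of cells with a count went the same way as the levels. A Vegfa count was present in 2.82% (2.23 to 3.52) of TNF-labelled against 9.91% (9.07 to 10.8) of control cells. Bnip3 was found in 2.35% (1.81 to 2.99) and 5.85% (5.20 to 6.55). Both genes thus gave a count in a small minority of cells of either library. Hif1a was found in 23.6% (22.0 to 25.2) and 33.6% (32.2 to 34.9), Egln3 in 14.6% (13.2 to 15.9) and 18.7% (17.6 to 19.8), and Ndrg1 in 37.9% (36.0 to 39.7) and 44.5% (43.1 to 45.9). P4ha1 went the other way, with 20.5% (19.0 to 22.0) against 15.9% (14.8 to 16.9). Adm was found in 0.0733% (0.00888 to 0.265) and 0.799% (0.566 to 1.10), or 2 and 38 cells.

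The difference in shares, TNF-labelled minus control, was -9.99 percentage points (-12.1 to -7.87) for Hif1a, -7.09 (-8.15 to -6.00) for Vegfa, -6.65 (-8.97 to -4.32) for Ndrg1 and 4.59 (2.75 to 6.46) for P4ha1. The size of the difference changed with the depth, and with it the cells kept. Thinned to 1000 and 2900 counts it was -6.36 and -17.3 points for Hif1a, -3.57 and -9.36 for Vegfa, -2.37 and -7.09 for Bnip3 and -2.27 and -6.58 for Egln3, and for P4ha1 3.27 and 3.31, below the 4.59 at 1700 counts. Without thinning, the shares in TNF-labelled and control cells were 7.49% and 19.3% for Vegfa, 5.06% and 13.1% for Bnip3, 43.4% and 54.5% for Hif1a, and 37.4% and 30.8% for P4ha1. For Egln3, Ndrg1 and Adm they were 29.7% and 34.4%, 58.9% and 63.7%, and 0.145% and 2.08%. No cell type that should lack these genes was present, so the share that free RNA gives was not measured.

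**Figure D2:**
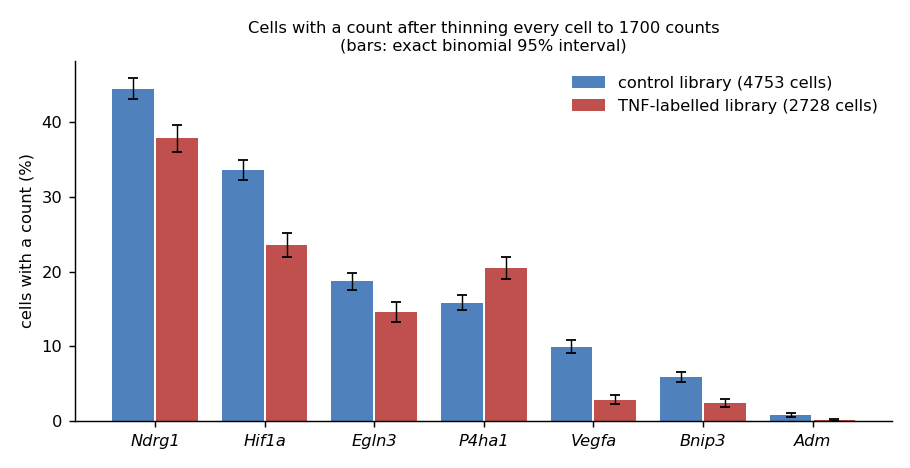
Share of cells with at least 1 count (percent) after each cell was thinned to 1700 counts, in 4753 control cells (blue) and 2728 TNF-labelled cells (red), with exact binomial 95% intervals. P4ha1 is found in more TNF-labelled than control cells, 20.5% against 15.9%, and the other genes in fewer.

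Across cells the genes varied little beyond counting error. In the thinned cells the variance over the mean, which is 1 for counting error alone, ran from 1.05 for Vegfa to 1.17 for Hif1a in the TNF-labelled library, with Adm at 0.999, and from 1.03 for Vegfa to 1.12 for Ndrg1 in the control library. The median over all genes at 10 CPM was 1.04 and 1.03. Of the variance of Ndrg1, 10.2% and 10.6% lay beyond counting error, and of Vegfa 4.37% and 3.23%. A cell held at most 6 counts of Ndrg1 and at most 2 and 3 counts of Vegfa. No thinned cell of either library held more than 6 counts of any of the 7 genes.

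Cells were also split by depth into 3 groups of equal size within each library, and Hif1a was the gene whose ratio followed depth. In the shallow group, at medians of 1541 and 1698 counts, Hif1a stood at 227 CPM in TNF-labelled and 248 CPM in control cells, a ratio of 0.915 (0.810 to 1.03) whose interval takes in 1. In the middle group, at medians of 3566 and 2902.5 counts, the ratio was 0.694 (0.634 to 0.758). In the deep group, at medians of 6611 and 6926 counts, it was 0.596 (0.560 to 0.634), from 153 and 257 CPM. The interval of the shallow group did not overlap that of the middle or the deep group, and the control level stayed between 248 and 259 CPM in all 3 groups while the TNF-labelled level was lower in deeper cells. Vegfa had its highest level in the shallow cells of both libraries, at 27.2 CPM in the shallow and 17.6 CPM in the deep group of TNF-labelled cells and at 67.8 and 49.95 CPM in control cells, and its ratio ranged only from 0.328 to 0.401. Bnip3 ratios ranged from 0.332 to 0.389, those of Egln3 from 0.743 to 0.869 and those of Ndrg1 from 0.738 to 0.877. For P4ha1 they were 1.54 (1.31 to 1.82), 1.11 (0.982 to 1.24) and 1.40 (1.30 to 1.51) from shallow to deep, without an order by depth. Whether depth here stands for cell size, cell state or capture was not tested.

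Clusters of cells were formed within each library from genes other than these 7 and the pathway genes, which gave 7 TNF-labelled and 6 control clusters, described by number and by their leading genes. No cluster carried the whole set at a high level. Vegfa ranged from 46.8 to 70.7 CPM over the control clusters and from 14.6 to 24.2 CPM over the TNF-labelled clusters, so the ranges did not overlap. Bnip3 ranged from 30.7 to 46.5 CPM over the control clusters and reached at most 17.1 CPM in a TNF-labelled cluster, with 0 counts in the clusters of 29 and 65 cells, where the upper bounds were 28.6 and 11.7 CPM. In each TNF-labelled cluster the level of both genes thus stood below that of their lowest control cluster, those led by genes of dividing cells included. The intervals were not all apart. For Vegfa, those of TNF-labelled clusters 4 (1.88 to 56.1, from 2 counts) and 6 (6.97 to 41.3) overlapped that of control cluster 5 (39.0 to 55.7). For Bnip3, those of TNF-labelled clusters 4 (0 to 28.6) and 5 (9.36 to 28.7) overlapped that of control cluster 3 (26.6 to 35.4).

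**Figure D3:**
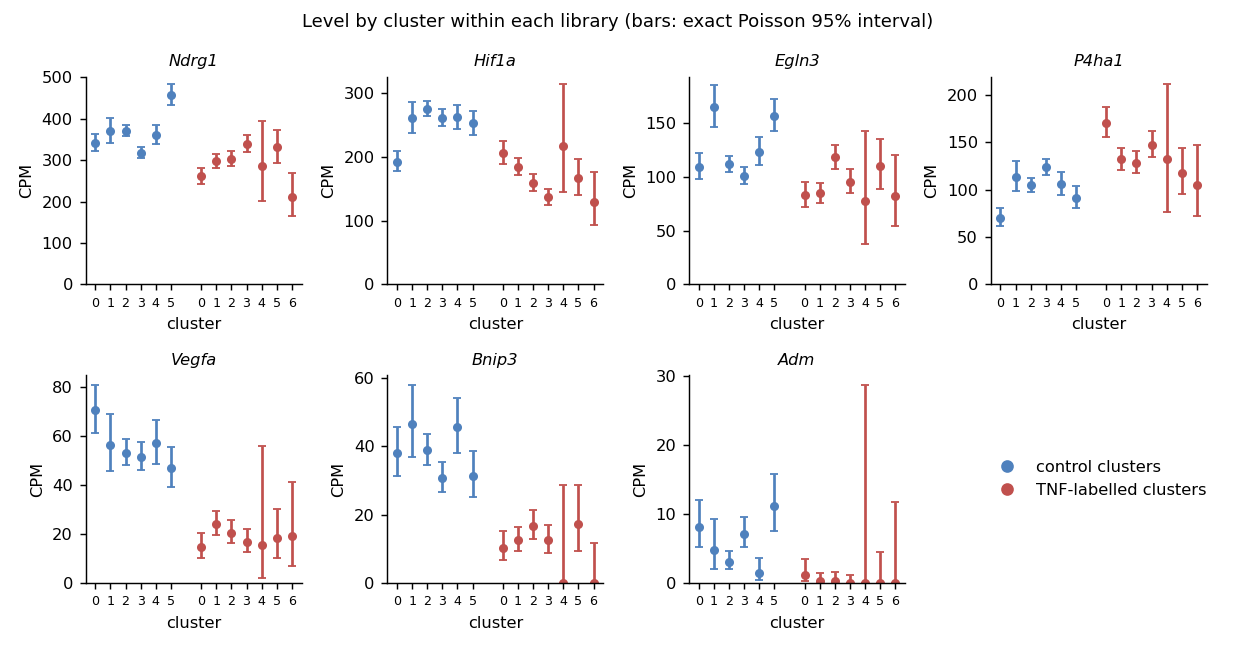
Level in CPM of summed cells for each gene in the clusters of the control library (blue, numbered 0 to 5) and of the TNF-labelled library (red, 0 to 6), with exact Poisson 95% intervals. The red points of Vegfa and Bnip3 all lie below the blue points, those of P4ha1 overlap them, and the wide bars belong to TNF-labelled clusters 4 and 6, with 29 and 65 cells.

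In the control library, different genes peaked in different clusters. Control cluster 5, with 491 cells led by Tenm3, Fxyd2 and Lgals4, had the highest Ndrg1 level of the control clusters, 459 CPM (433 to 485) against 318 to 371 CPM elsewhere, and the highest Adm level, 11.1 CPM (7.46 to 15.8) against 1.39 to 8.08 CPM. That Adm level rests on 30 counts, and its interval overlaps those of clusters 0, 1 and 3. Egln3 was high in control cluster 1, whose leading genes Ccnb1, Cdc20 and Fam64a mark late cell division, at 165 CPM (146 to 185), and in cluster 5, at 157 CPM (142 to 172). These intervals overlap, and the other 4 clusters lay between 101 and 123 CPM. Control cluster 0, with 1525 cells, had the lowest P4ha1 level, 70.4 CPM (61.1 to 80.6), the lowest Hif1a level, 193 CPM (177 to 209), and the highest Vegfa level, 70.7 CPM (61.5 to 80.9). The Vegfa interval overlaps those of clusters 1 (45.7 to 68.9) and 4 (48.7 to 66.5), and the P4ha1 interval narrowly that of cluster 5 (80.4 to 104). Cluster 0 was also the shallowest control cluster, at a median of 1847 counts per cell, and had the largest mitochondrial share, 5.80% of counts against 2.71 to 3.93% elsewhere. The part of depth and mitochondrial share in these levels was not tested.

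In the TNF-labelled library, P4ha1 was highest in cluster 0, with 500 cells led by Plxna4a, Slc24a3 and Sulf1, at 171 CPM (155 to 188), beside 104 to 147 CPM in the others. That interval overlaps those of clusters 3 (134 to 161) and 4 (76.8 to 211). Hif1a was at 207 CPM (189 to 225) in cluster 0 and at 136 CPM (124 to 150) in cluster 3, with 484 cells led by Depdc1b, Top2a and Mxd3, genes of dividing cells. Ndrg1 ran the other way between these clusters, at 262 CPM (242 to 282) and 340 CPM (320 to 361). Cluster 3 was the deepest of the library, at a median of 6428 counts, and Top2a stood there at 1085 CPM. Cells without a Mki67 or Top2a count, which this absence does not show to be non-dividing, numbered 1282 TNF-labelled and 2305 control cells. Over them the Hif1a ratio was 0.786 and that of P4ha1 1.25, both nearer to 1 than over all cells. Vegfa and Bnip3 stayed at 0.376 and 0.379. Shallow cells are also likelier to lack a count of either gene, and the depth of these cells was not compared with that of all cells. In the shallow group above, the ratio was 0.915 for Hif1a and 1.54 for P4ha1. The part of depth was not tested.

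The 7 genes were not seen to rise and fall together from cell to cell. Pearson's r of log counts over the thinned cells had a median of 0.0112 over the 21 pairs in the TNF-labelled library (from -0.0195 to 0.0435, 2728 cells) and of -0.000949 in the control library (from -0.0260 to 0.0294, 4753 cells). Among the 3266 genes at 50 CPM or more in each library, the 5th and 95th percentiles of r over all pairs were -0.0395 and 0.0407 in the TNF-labelled and -0.0292 and 0.0305 in the control library. Only the pair Bnip3 and Ndrg1 in the TNF-labelled library, at 0.0435, lay outside that range, and it was at 0.0204 in the control library. Vegfa, Bnip3 and Adm lay below 50 CPM in at least 1 library, so for pairs that hold them the range is not matched in level. An r above 0 in both libraries was seen for 5 of the 21 pairs. These are descriptions over cells that share a library, and in counts this sparse an r of such a size is no finding.

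Cells holding a count of both genes of a pair were counted too. Vegfa and Bnip3, the genes past 2-fold lower, were found together in 3 TNF-labelled cells against 1.81 to be had from unrelated genes, and in 30 control cells against 27.5. Hif1a and Ndrg1 met in 239 TNF-labelled cells against 243 and in 696 control cells against 710. Leaving out Adm, the number of cells with both genes ranged from 0.840 to 1.66 times that of unrelated genes in the TNF-labelled library and from 0.841 to 1.16 times in the control library.

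Depth limits what these pairs can show. From the variance beyond counting error, genes whose true levels moved in perfect step could reach an r of counts of only 0.0503 to 0.126 in the TNF-labelled and 0.0425 to 0.104 in the control library, over the 15 pairs without Adm. For Ndrg1 and Hif1a the limit was 0.122 and 0.104, and the r of counts was -0.00127 and 0.00881. For Vegfa and Bnip3 the limit was 0.0516 and 0.0466, and the r of counts 0.0134 and 0.0112. Co-variation of the scarcer genes was thus hardly detectable at this depth.

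**Figure D4:**
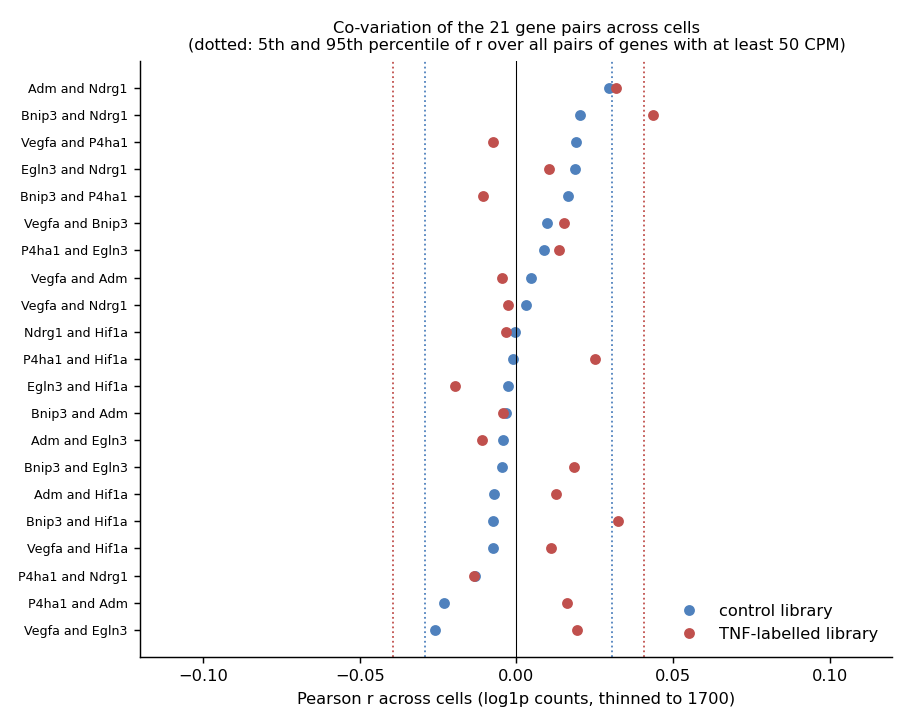
Pearson r across cells for each of the 21 pairs of genes in the control library (blue) and the TNF-labelled library (red), with dotted lines at the 5th and 95th percentiles over all pairs of genes at 50 CPM or more. The points lie between -0.0260 and 0.0435, on both sides of 0.

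For each gene, the 3 most similar genes at 50 CPM or more were taken by the smaller r of the 2 libraries. The likeness was weak throughout, with smaller r values from 0.0316 to 0.0578. These are the highest of 3265 or 3266 genes searched in the same cells. How high the top r of unrelated genes would be was not worked out, so the genes named are a description only. Hif1a was most like Ext1, a heparan sulfate polymerase (0.0579 in the TNF-labelled and 0.0578 in the control library), then Slit2 and Ulk2. Egln3 was most like Fam162a, another HIF target of mitochondria (0.0466 and 0.0446), then Usp14 and Klf4. P4ha1 was most like Pdlim5, and Pard3 was also among its 3. Ndrg1 was most like Sqrdl, Vdac2 and Lgals3, Vegfa like Pitpna, Stag1 and Ddx24, and Bnip3 like Cap1, Clcn3 and Guf1. The genes for Adm, C1qbp, Ptrh2 and Timm8b, rest on 2 TNF-labelled cells. P4ha1, Egln3, Ndrg1 and Hif1a were themselves among the genes searched, and none of these 4 was among the 3 most similar to another of the 7, while Vegfa, Bnip3 and Adm lay below 50 CPM in at least 1 library and were not searched.

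The rest of the oxygen-sensing pathway was read from 7 lists, of which 83 of 87 genes were found and 57 had at least 10 CPM in either library. Of these, 5 were past 2-fold lower and 3 past 2-fold higher, 8.77% and 5.26%, close to the background of 8.19% and 5.27%. Of the 12 tested regulators of HIF, 0 were past 2-fold either way, with a median log2 ratio of 0.14. Tceb2 and Rbx1, parts of the VHL ubiquitin ligase, were at 742 against 568 CPM and 320.2 against 203 CPM in the TNF-labelled and control libraries, and the ligase's Tceb1 at 74.5 against 127 CPM. The partner subunit Arnt was at 51.9 and 38.5 CPM, the substrate receptor Vhl at 19.9 and 24.1 CPM, and the prolyl hydroxylases Egln1 and Egln2 at 29.3 and 27.7 CPM and at 68.2 and 80.4 CPM. Epas1, which encodes the HIF-2 alpha subunit, had only 8 and 15 counts, and Hif3a 0 and 3.

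Glucose and pH targets had the lowest median of the lists, -0.72 (-0.55 with TMM factors). By library totals, 3 of 14 tested genes were past 2-fold lower and 0 higher. Gapdh was at 1830 against 3863 CPM, Pgam1 at 394 against 986 CPM, and Car9, a membrane carbonic anhydrase often used as a hypoxia marker, at 25.8 against 64.8 CPM, 2.51-fold lower (2.24 to 2.82). Ldha, the lactate dehydrogenase subunit gene and second to Gapdh by the mean of both libraries, was at 1035 against 1647 CPM. Glycolytic genes such as Gapdh have many near-identical pseudogene copies, and how the counting treated them was not given in the sources used here. With TMM factors Gapdh was under 2-fold, at a ratio of 0.531. The glucose transporter gene Slc2a1 (0.893, 0.834 to 0.957) and the hexokinase gene Hk2 (1.01, 0.908 to 1.12) lay near 1.

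Collagen-modifying targets went both ways among 7 tested, with a median of 0.16. Lox, whose product crosslinks collagen fibres, stood at 1469 against 325 CPM (ratio 4.52, 4.40 to 4.64), and Plod2, a lysyl hydroxylase of collagen, at 194 against 115 CPM (ratio 1.68, 1.596 to 1.77). Ero1l, an oxidase of protein folding, was 2.03-fold lower (1.89 to 2.19), and under 2-fold with TMM factors. P4ha1 was thus higher alongside Lox and Plod2 and opposite to P4hb and Ero1l. Of the 6 mitochondrial targets tested 0 were past 2-fold, and their median was -0.13, or 0.03 with TMM factors. Higd1a was at 500.3 against 393 CPM and Fam162a at 450 against 519 CPM.

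Transcription and feedback targets (12 tested, 1 lower, 0 higher, median -0.37) had as their highest means over both libraries Ccng2, at 338 against 193 CPM, and Wsb1, at 77.3 against 115 CPM. Rora stood at the 2-fold bound (ratio 0.4996, 0.436 to 0.571). With TMM factors Rora was under it, and Maff, at 1.90 by library totals, past it at 2.12. Secreted and vascular targets (4 tested, 1 higher, 0 lower) had a median of -0.13, or 0.04 with TMM factors. They held Angpt1, an angiopoietin that stabilises vessels, at 15.8 against 6.49 CPM (ratio 2.44, 1.98 to 3.01). Vegfc, a growth factor of lymphatic vessels, was at 28.5 against 24.1 CPM. Among receptors, Nrp2 was at 135 against 67.0 CPM (ratio 2.01, 1.88 to 2.15) and Nrp1 at 150 against 134 CPM. Both are neuropilins, co-receptors that bind VEGF proteins, and the signalling receptors Kdr and Flt1 had 1 and 1 and 45 and 93 counts. The adrenomedullin receptor Calcrl had 88 TNF-labelled and 53 control counts, and its partner Ramp3 had 35 and 177.

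**Figure D5:**
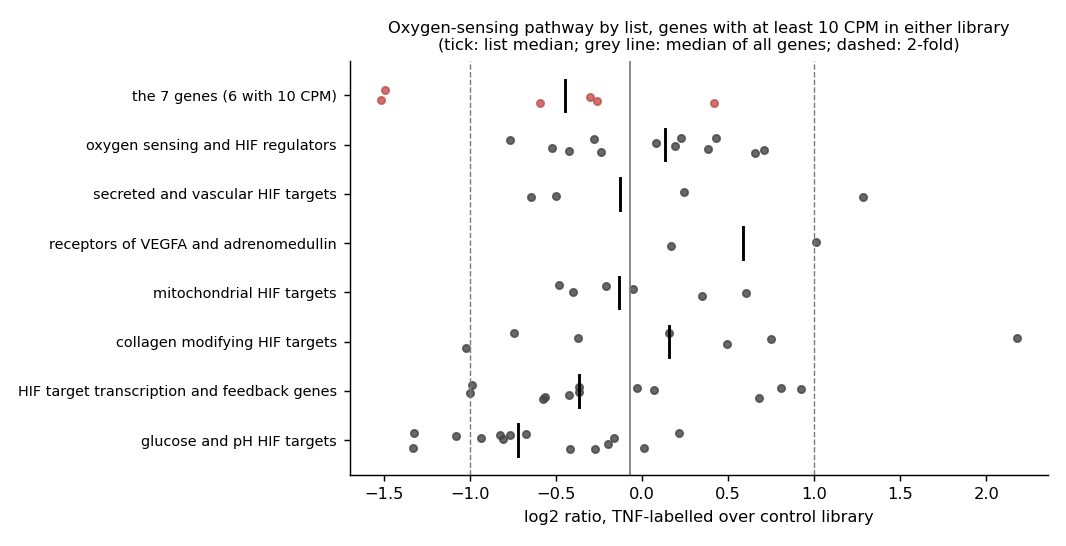
Log2 ratio, TNF-labelled over control, for genes with at least 10 CPM in either, by list, with each list's median as a tick, the median of all genes (-0.07) as a grey line and 2-fold as dashed lines. The red points are 6 of the 7 genes, with Vegfa and Bnip3 at the left, at -1.49 and -1.51, and P4ha1 alone above 0, and the glucose and pH list has the lowest median.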

How the data were processed

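Single-cell RNA sequencing was done on 1 TNF-labelled and 1 control library of IEC-6 cells. The authors deposited whole-number counts per gene and cell, not normalized as the differing totals show. The build was Rnor_5.0, per the submitters' processing notes. Aligner, annotation release, barcode filter and use of molecular identifiers were not given in the sources used here. Intervals may therefore be too narrow. A cell needed 500 counts, 300 genes and no more than 20% mitochondrial counts (3457 of 3457 and 5712 of 5713 barcodes). A gene absent from a matrix was taken as 0 there. No doublets were called or removed.

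Counts were summed per library, with a floor of 3 counts in ratios. Cells were thinned without replacement to 1700 counts for shares and correlations. Clusters came from scanpy 1.11.5 (2000 variable genes, 30 components, 15 neighbours, Leiden resolution 0.5), and TMM factors from edgeR 4.0.16. Named pathway genes are those past 2-fold and the 2 most abundant of each list, and a few others chosen after their values were seen. Some genes that this rule takes are left out of the text. The genes and lists were chosen with earlier results of these data known, and the split by depth was added after the levels were seen. In simulated data for the TNF-labelled against control comparison, run on 18256 genes, 67 of 67 genes changed 3-fold and 66 of 66 changed 5-fold were called, and 0 of 67 at 1.5-fold and 0 of 8064 unchanged ones. The simulated counts held counting error alone, without variation between libraries, and the changed genes were taken from the more abundant ones. The simulation checks the calling rule and gives no rate of false calls for these libraries.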

Additional observations from a re-analysis of the deposited data

How the results depend on the processing

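Over 7 alternatives to the ratios (TMM factors, a total without ribosomal and mitochondrial genes, no cell filter, at least 1700 counts per cell, thinned counts, cells without a Mki67 or Top2a count, and, added after seeing the data, no shared barcodes), each of the 7 genes kept its direction, and Vegfa and Bnip3 stayed past 2-fold lower. With a minimum of 5 CPM, Adm joined them, and at 1.5-fold Hif1a did. Adm reached 5 CPM in the control library alone (5.54 against 0.342 CPM). The share of all genes past these looser bounds was not worked out, so these additions have no background beside them. Values left their counting interval with TMM factors for P4ha1 (1.495), Egln3 (0.910), Ndrg1 (0.933) and Hif1a (0.742), which comes from the scaling alone, with thinned counts for Vegfa (0.277) and Egln3 (0.757), and in cells without a Mki67 or Top2a count for P4ha1 (1.25) and Hif1a (0.786). For the last 2 of these settings the cause was not tested. Share differences kept their sign at all depths. At 1000 and 2900 counts they were -3.57 and -9.36 points for Vegfa, -2.37 and -7.09 for Bnip3, -2.27 and -6.58 for Egln3 and -6.36 and -17.3 for Hif1a, and at 2900 counts -1.41 for Adm and -8.99 for Ndrg1. The shares themselves were larger at 2900 than at 1000 counts, for Vegfa 4.79% against 2.29% of TNF-labelled and 14.2% against 5.87% of control cells. Differences in points at different depths are therefore not on the same scale. The depth also sets which cells are kept, and the part of each was not tested. The median r over pairs stayed between -0.0118 and 0.0101 in the alternatives, on both sides of 0. Pathway genes past 2-fold lower numbered 2 with TMM factors against 5, and higher 4 against 3. With Leiden resolution 1.0, the highest over lowest cluster level of Bnip3 in control cells was 2.50 against 1.51, of Vegfa 2.14 against 1.51, of Ndrg1 1.86 against 1.44 and of Hif1a 1.89 against 1.43. Each of these 4 rests on a cluster of 22 cells, with 5 Vegfa and 10 Bnip3 counts, and the Vegfa interval (0.903 to 6.66) takes in 1. At that resolution Egln3 was highest in control cluster 5 (160.2 CPM) of that clustering, with 482 cells, above its cluster 1 (146 CPM). No paired analysis was possible because each group has 1 library.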
